A study of Mus musculus with 9 samples.

Results

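The 9 chemokine ligands Ccl2, Ccl3, Ccl4, Ccl5, Ccl6, Ccl9, Cxcl2, Cxcl10 and Cxcl16 were examined in splenic myeloid-derived suppressor cells (MDSCs), immature myeloid cells that expand in tumour-bearing mice and restrain immune responses. They were chosen by gene symbol, as 9 of the 23284 symbols with a value in every sample, and each of them had a row. mRNA was sequenced in 9 samples, 3 each of polymorphonuclear, neutrophil-like MDSCs (PMN-MDSCs) from wild-type (WT) C57BL/6J mice, monocytic MDSCs (Mo-MDSCs) from WT C57BL/6J mice, and Mo-MDSCs from C57BL/6 mice labelled as p16/p21 double knockout (DKO). All mice carried a spindle cell tumour (SCT), grown from a line that was derived from a p16 knockout mouse, and the cells were taken from the spleen with a magnetic isolation kit as Ly6G+ cells (PMN-MDSCs) or Ly6G- Gr-1+ cells (Mo-MDSCs). The labels give an age of 3 weeks, which the study's methods give as the time from tumour inoculation of adult mice to collection. The sources used here do not say whether a sample pooled several mice or came from a mouse of its own, so the p-values below measure the spread between these samples, which may in part be technical. No promoter or Cre line that would restrict the knockout to myeloid cells is named in them.

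Levels are given as FPKM, the fragments of a gene scaled to the length of its transcripts and to the library size of the sample. Genes of different length may thus be set side by side. Read depth is unknown. Relative depth, taken from the steps that a read makes in low genes, ranged from 0.809 to 1.31 of that of WT Mo-MDSC replicate 1, and 11299 to 11418 genes per sample reached 1 FPKM. The gene level did not separate the genotype labels. Cdkn1a, which encodes p21, was at 5.55 to 8.52 FPKM in the libraries labelled DKO and at 6.46 to 8.18 in WT Mo-MDSCs, and Cdkn2a, which encodes p16 and Arf, was at 0 to 0.586 against 0.432 to 0.772. A value summed over a gene cannot tell deleted exons from remaining ones, so the group is called DKO-labelled here. The subset labels were matched by the lineage genes Ccr2 and Cxcr2, but not by every marker listed. Of 11 monocyte markers, 9 were higher in the WT Mo-MDSC group at an adjusted p below 0.05 (limma), and 2 did not pass. Of 12 neutrophil markers, 7 were lower in that group, 1 (Elane) was higher and 4 did not pass. At this threshold, 18.5% of all 11491 genes tested were higher in that group and 20.6% were lower. Ccr2, the receptor by which classical monocytes leave the marrow, was at 281 to 362 FPKM in WT Mo-MDSCs and 2.36 to 2.51 in PMN-MDSCs, and Cxcr2, the neutrophil receptor for CXC ligands, was at 6.87 to 18.6 against 590 to 875. Ly6g, the sorting antigen of PMN-MDSCs, has no row in the values analysed.

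Chemokines are small secreted proteins that direct leukocyte movement by binding G protein-coupled receptors, and they are classed by the spacing of their first cysteines into CC (Ccl) and CXC (Cxcl) ligands. Myeloid cells both follow and make them. CCL6 and CCL9 are mouse ligands of CCR1, CCL3, CCL4 and CCL5 are inflammatory CC ligands that attract monocytes and T cells, CCL2 binds CCR2 and recruits monocytes, CXCL2 binds CXCR2 and recruits neutrophils, CXCL10 is an interferon-inducible ligand of CXCR3 on T cells and NK cells, and CXCL16 is a transmembrane ligand of CXCR6 that can be shed. Many of these genes are switched on by the transcription factor NF-kB, and Cxcl10 also by interferon-stimulated factors.

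Of the 9 genes, 7 lie on mouse chromosome 11 and 2 on chromosome 5 (GRCm38, GENCODE M21). Ccl5 (chr11:83525778-83530518, minus strand), Ccl9 (chr11:83572919-83578636, minus), Ccl6 (chr11:83587882-83593087, minus), Ccl3 (chr11:83647844-83649355, minus) and Ccl4 (chr11:83662584-83664683, plus) form a cluster of 138906 bases, in which they are 5 of the 6 coding genes annotated. Ccl9 and Ccl6 are next to each other, 9245 bases apart. Ccl2 (chr11:82035571-82037453, plus) and Cxcl16 (chr11:70453983-70459984, minus) lie elsewhere on the chromosome, and Cxcl2 (chr5:90903871-90905938, plus) and Cxcl10 (chr5:92346638-92348889, minus) on chromosome 5. Cxcl10 overlaps Art3, Cxcl16 overlaps Zmynd15, Ccl6 overlaps E230016K23Rik and Ccl2 overlaps Gm17268, each on the other strand. The library kit keeps the strand, but the setting used to count is not stated, so reads of such pairs may not be separable. Art3 was at 0 to 0.384 FPKM, Zmynd15 at 0.211 to 0.818 and E230016K23Rik at 1.18 to 2.68 in the 9 samples, and Gm17268 has no value.

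Promoters of 5 of the 9 genes (Ccl3, Ccl6, Ccl9, Cxcl2 and Cxcl10) were in the RefSeq table for GRCm38.p6, each 300 bases long with 250 before the start. They were searched on both strands for NF-kB-like letters, GGG and TTCC with any 3 bases between them, held by 5.56% of all 32851 promoters, interferon-response-like letters, GAAA and GAAA with any 2 bases between them, held by 3.44%, and TATAAA, held by 13.6%. The windows below are those of the 3 genes with a match, shown because all of these genes differed between the WT subsets, printed 5′ to 3′ on the gene's strand with the match in capitals, and the position is that of the first capital relative to the start.
Cxcl2 at -97, chr5:90903792-90903821, plus strand: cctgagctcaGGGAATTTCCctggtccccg
Cxcl2 at -78, chr5:90903811-90903840, plus strand: cctggtccccGGGCTTTTCCagacatcgtg
Cxcl10 at -159, chr5:92349029-92349058, minus strand: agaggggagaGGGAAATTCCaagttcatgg
Cxcl10 at -104, chr5:92348974-92349003, minus strand: tcggtttacaGGGGACTTCCctcgggttgc
Cxcl10 at -213, interferon-response-like, chr5:92349083-92349112, minus strand: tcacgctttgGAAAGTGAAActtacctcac
Ccl9 at -35, NF-kB-like letters on the other strand, chr11:83578652-83578681, minus strand: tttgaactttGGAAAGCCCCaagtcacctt
Ccl9 at -92, TATAAA, chr11:83578711-83578740, minus strand: gtgaatgaatttTATAAAaggagaaatcct
The Cxcl2 match at -97 is read on the other strand as well, from -96. The Ccl9 promoter held TATAAA on the other strand at -224 and, overlapping the match shown, at -94. None of the 3 motifs was found in the windows of Ccl3 and Ccl6. The neighbours Ccl6 and Ccl9 shared the 13 bases GCCCTCCACTTCC, at chr11:83593130-83593142 in Ccl6 and chr11:83578638-83578650 in Ccl9, which 3 of the 32851 promoters hold. A match is a description of the letters and not of a bound site.

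The levels of the 9 ligands spanned more than the differences between groups. Ccl6 was the highest in every group, at 775 ± 57.8 FPKM (SD, n = 3) in PMN-MDSCs, 242 ± 24.7 in WT Mo-MDSCs and 206 ± 13.3 in DKO-labelled Mo-MDSCs. In PMN-MDSCs the next highest was Ccl5 at 7.29 ± 0.733, and from Ccl5 down through Cxcl10, Ccl3, Ccl4, Cxcl2 and Cxcl16 to Ccl9 each gene's samples overlapped those of the next, while Ccl2 was below them all at 0.744 ± 0.125. In WT Mo-MDSCs Ccl9 was clearly in the second place at 72.9 ± 6.45, followed by Cxcl10 at 13.5 ± 3.49 and Ccl5 at 8.85 ± 1.61, whose samples overlapped. Below them Cxcl16 overlapped Ccl3, Ccl3 overlapped Ccl4 and Ccl4 overlapped Ccl2, while Cxcl2 was the lowest at 0.224 ± 0.195. In DKO-labelled Mo-MDSCs the first 4 places were Ccl6, Ccl9, Cxcl10 and Ccl5 without overlap, then came Cxcl16, Ccl3, Ccl2 and Ccl4 with overlap, and Cxcl2 was again the lowest.

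**Figure D1:**
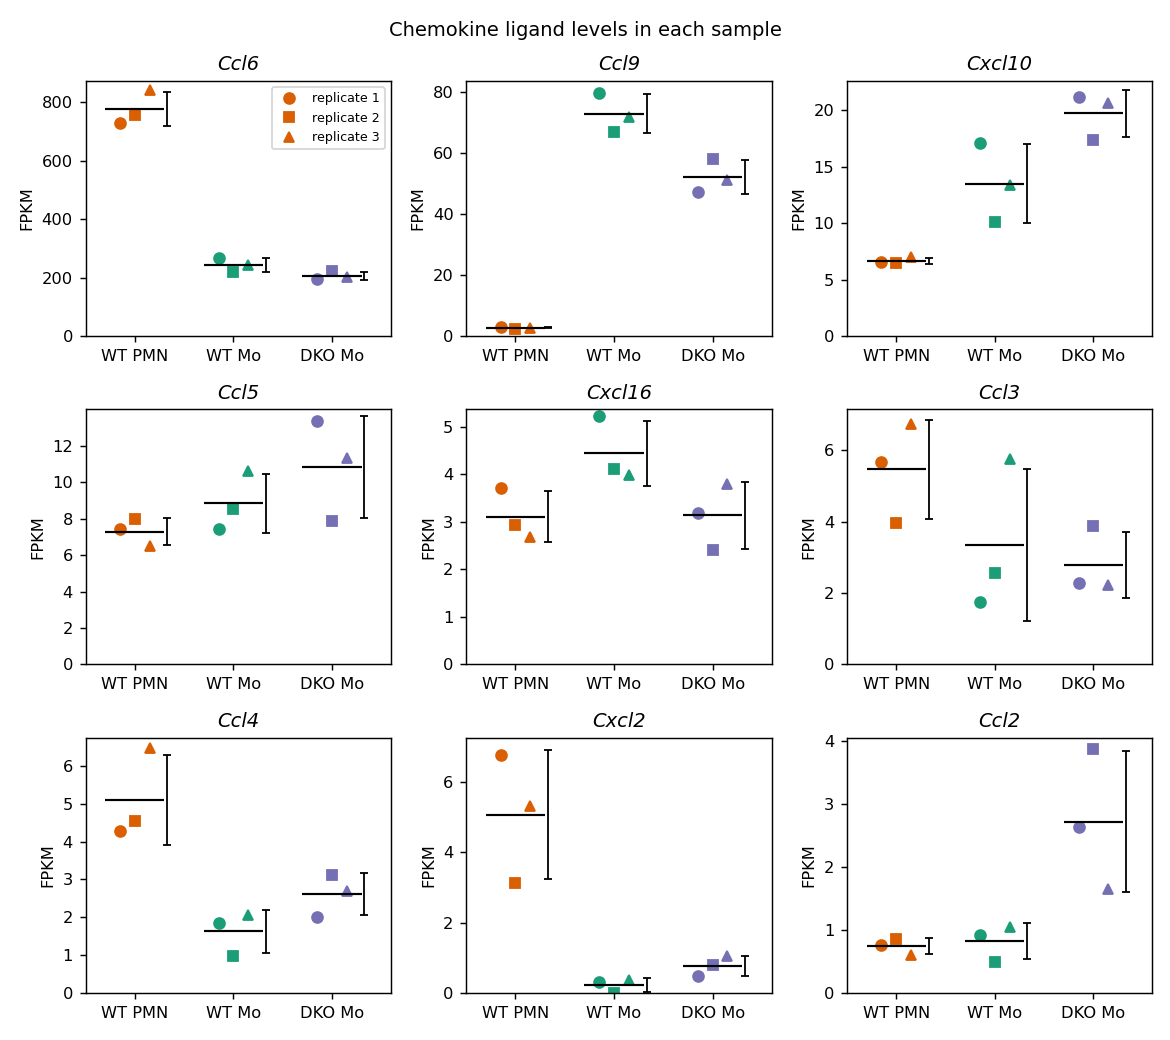
FPKM (y axis of each panel, from 0) of each ligand in the 3 groups (x axis), with circles, squares and triangles for replicates 1, 2 and 3, a line at the mean and a bar of 1 SD to each side. Ccl6 is highest in PMN-MDSCs at 728 to 840 FPKM, Ccl9 is at 2.44 to 2.81 there and at 67.0 to 79.8 in WT Mo-MDSCs, and Ccl2 is at 1.66 to 3.88 in the DKO-labelled samples and at most at 1.04 in the others.

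The first comparison, of WT Mo-MDSCs with WT PMN-MDSCs, addressed how the subsets differ. Ccl9 and Cxcl10 were higher in Mo-MDSCs, and Ccl6, Ccl4 and Cxcl2 were lower. Of the 8 ligands that passed the filter of 1 FPKM in 3 of the 6 samples, these 2 were higher and these 3 lower at an adjusted p below 0.05 (limma, Benjamini-Hochberg over 11491 genes), where 18.5% of all genes tested were higher and 20.6% were lower. This fit took the samples as unpaired. In a fit that pairs them by replicate number, 3 ligands were higher and 4 lower, beside 3167 and 3417 of the 11491 genes. Cxcl2 passed the filter only through PMN-MDSCs, where it is high, and Ccl2 did not pass. Fewer cells of a type and less RNA per cell cannot be told apart in such bulk samples.

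Ccl6 and Ccl9 moved in opposite directions. Ccl6 was at 728, 757 and 840 FPKM in PMN-MDSC replicates 1 to 3 and at 267, 218 and 241 in WT Mo-MDSCs, with every Mo-MDSC sample below every PMN-MDSC sample. The log2 fold change was -1.68 (SE 0.106, adjusted p = 4.84e-05). Ccl9 was at 2.81, 2.44 and 2.77 FPKM in PMN-MDSCs and at 79.8, 67.0 and 71.9 in WT Mo-MDSCs, again without overlap. Its log2 fold change of 4.72 (SE 0.0980, adjusted p = 1.14e-06) ranked 3 of the 11491 genes by p-value. Ccr1, the receptor that binds both, was at 160 to 240 FPKM in PMN-MDSCs and 13.7 to 17.4 in WT Mo-MDSCs (log2 fold change -3.72, SE 0.163, adjusted p = 1.24e-05).

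Levels of lineage markers were set beside these genes. WT Mo-MDSCs held Ccl6 at 31.2% of the PMN-MDSC mean, whereas they held Cxcr2 at 1.66%, the gelatinase gene Mmp9 at 1.96%, Retnlg at 2.07% and the G-CSF receptor gene Csf3r at 5.31%. Other neutrophil markers were at higher percentages, S100a9 at 20.7% and the granule gene Camp at 74.5%, and the primary granule genes Mpo and Elane were at 249% and 471%, Elane being higher in WT Mo-MDSCs (log2 fold change 2.30, SE 0.671, adjusted p = 0.0321). Over the 12 markers with a value the median was 20.9%. Summed, those markers reached 100630 to 234030 FPKM in PMN-MDSCs and 17919 to 61916 in WT Mo-MDSCs. In the other direction, PMN-MDSCs held Ccl9 at 3.67% of the WT Mo-MDSC mean, between Cx3cr1 at 6.16% and Ccr2 at 0.740%, and F13a1, which encodes a coagulation factor subunit made by monocytes, was at 0.538%. Over the 11 monocyte markers the median was 35.8%, up to 94.5% for Csf1r and 99.5% for Cd68. Of the 10 macrophage markers 6 were lower in WT Mo-MDSCs, beside 20.6% of all genes tested. The macrophage markers summed to 5942 to 7137 FPKM in PMN-MDSCs against 3772 to 4875, and the 9 B cell markers to 1685 to 1942 against 1246 to 1410. T cell markers summed to 28.4 to 41.0 FPKM in PMN-MDSCs and 21.8 to 27.6 in WT Mo-MDSCs, and NK cell markers to 9.40 to 14.2 and 11.2 to 14.7. Erythroid markers summed to 3165 to 7214 FPKM over the WT samples, dendritic cell markers to 43.7 to 60.6, basophil and eosinophil markers to 16.7 to 58.5 and platelet markers to 3.22 to 7.78. The most abundant marker in Mo-MDSCs was C1qc of the macrophage list (850 to 1101 FPKM in WT Mo-MDSCs), Cd79a of the B cell list (353 to 384), Ctss of the monocyte list (1312 to 1569) and S100a9 of the neutrophil list (6928 to 24489). It was Cd4 of the T cell list (8.24 to 9.93), Klrk1 of the NK cell list (5.58 to 8.06), Itgax of the dendritic cell list (17.7 to 18.1), Prg2 of the basophil and eosinophil list (10.4 to 26.1), Gp9 of the platelet list (0.306 to 3.08) and Beta-s of the erythroid list (1774 to 3388). No marker was at 0 in all samples. The part of these other cell types in the ligand levels was not tested.

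**Figure D2:**
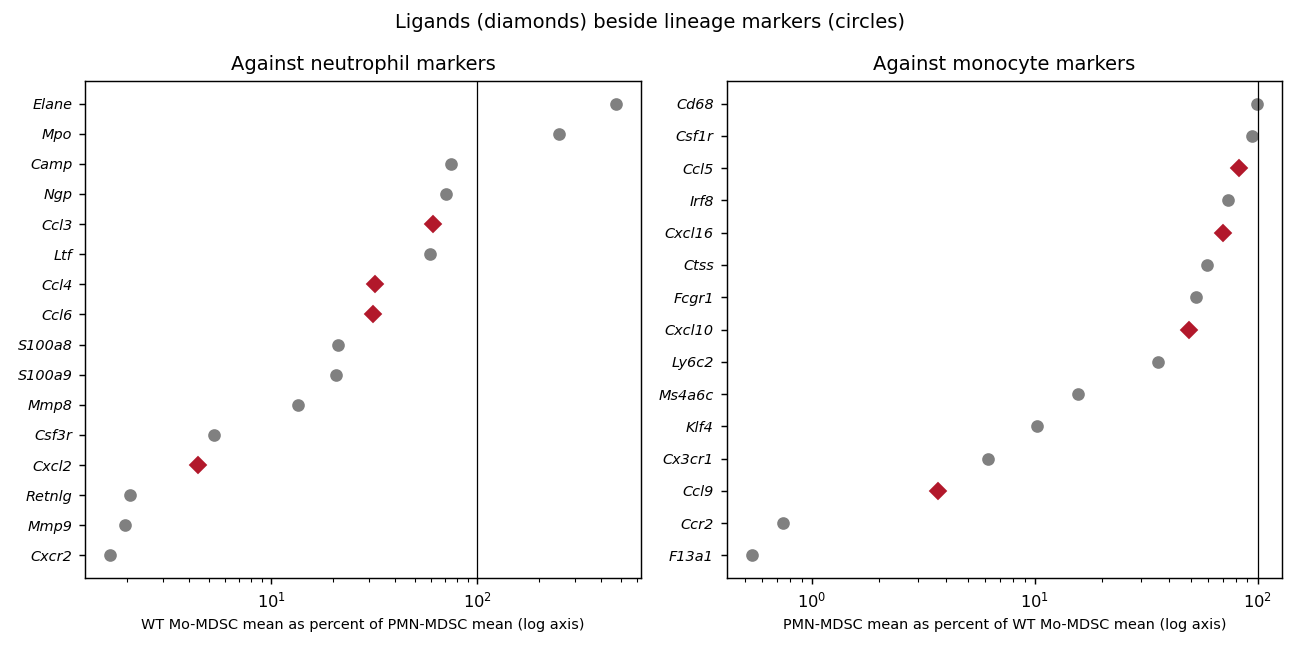
Left, WT Mo-MDSC mean as a percent of the PMN-MDSC mean (log axis) for 12 neutrophil markers (circles) and 4 ligands (diamonds); right, PMN-MDSC mean as a percent of the WT Mo-MDSC mean for 11 monocyte markers and 4 ligands, with a line at 100%. Ccl6 lies at 31.2%, above Cxcr2 at 1.66%, and Ccl9 lies at 3.67%, between Ccr2 at 0.740% and Cx3cr1 at 6.16%.

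Among the inflammatory CC ligands Ccl3, Ccl4 and Ccl5, Ccl4 was lower in Mo-MDSCs. It was at 4.29, 4.54 and 6.46 FPKM in PMN-MDSCs and at 1.84, 0.987 and 2.07 in WT Mo-MDSCs, without overlap (log2 fold change -1.63, SE 0.291, adjusted p = 0.00453). Ccl3, its neighbour in the cluster, was at 5.68, 3.97 and 6.74 FPKM in PMN-MDSCs and at 1.74, 2.55 and 5.75 in WT Mo-MDSCs. The groups overlapped through replicate 3 of WT Mo-MDSCs. That sample had the highest Cxcr2 (18.6 FPKM, against 6.87 and 10.02 in the other WT Mo-MDSC samples) and Mmp9 (31.8, against 15.3 and 15.5). Retnlg was instead highest in replicate 2 (107 FPKM, against 64.6 and 79.2 in replicates 1 and 3). The part of neutrophil RNA in the Ccl3 level of WT Mo-MDSC replicate 3 was not tested. The log2 fold change of Ccl3 was -0.83 (SE 0.416, adjusted p = 0.155). It was -1.30 (adjusted p = 0.0148) without that sample, and in the fit that pairs samples by replicate (a replicate block) it was -0.83 (SE 0.263, adjusted p = 0.0377), so the call rests on these choices.

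Ccl5 was at 7.41, 7.95 and 6.50 FPKM in PMN-MDSCs and at 7.43, 8.51 and 10.6 in WT Mo-MDSCs. The groups overlapped, and the log2 fold change of 0.27 had a 95% interval of -0.08 to 0.62 (adjusted p = 0.197).

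Cxcl2, the neutrophil attractant, was the ligand with the lowest Mo-MDSC level. It was at 6.77, 3.13 and 5.32 FPKM in PMN-MDSCs and at 0.316, 0 and 0.356 in WT Mo-MDSCs, and the groups were far apart. The log2 fold change was -4.21 (SE 0.614, adjusted p = 0.00192), but at these low levels it depends on the pseudocount, from -5.51 with 0.01 to -2.28 with 1. Its receptor gene Cxcr2 fell as well, by 6.00 on the log2 scale (SE 0.343, adjusted p = 3.20e-05).

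Cxcl10 was at 6.52, 6.43 and 6.96 FPKM in PMN-MDSCs and at 17.1, 10.1 and 13.3 in WT Mo-MDSCs, without overlap (log2 fold change 0.98, SE 0.181, adjusted p = 0.00503). Cxcr3, its receptor, was at 2.92 to 4.72 FPKM in these samples. Cxcl16, the transmembrane ligand, was at 3.71, 2.94 and 2.69 FPKM in PMN-MDSCs and at 5.23, 4.11 and 3.99 in WT Mo-MDSCs. The groups did not overlap, and Mo-MDSCs were higher by a log2 fold change of 0.50 (SE 0.167) that just missed the threshold (adjusted p = 0.0504) and was past it with the replicate block (SE 0.0928, adjusted p = 0.00535). Cxcr6, the receptor of CXCL16, stayed under 1 FPKM in all 9 samples.

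Ccl2 was low in both WT groups, at 0.763, 0.859 and 0.611 FPKM in PMN-MDSCs and at 0.925, 0.497 and 1.04 in WT Mo-MDSCs. Fitted with no filter, its log2 fold change was 0.08 with a 95% interval of -0.65 to 0.82 (adjusted p = 0.881). In all, the WT groups did not overlap for 3 ligands that were higher in Mo-MDSCs and 3 that were lower, where 26.2% and 26.4% of the genes tested did so. An exact two-sided permutation test of 3 samples against 3 cannot go below 0.1, which each of these 6 ligands reached.

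**Figure D3:**
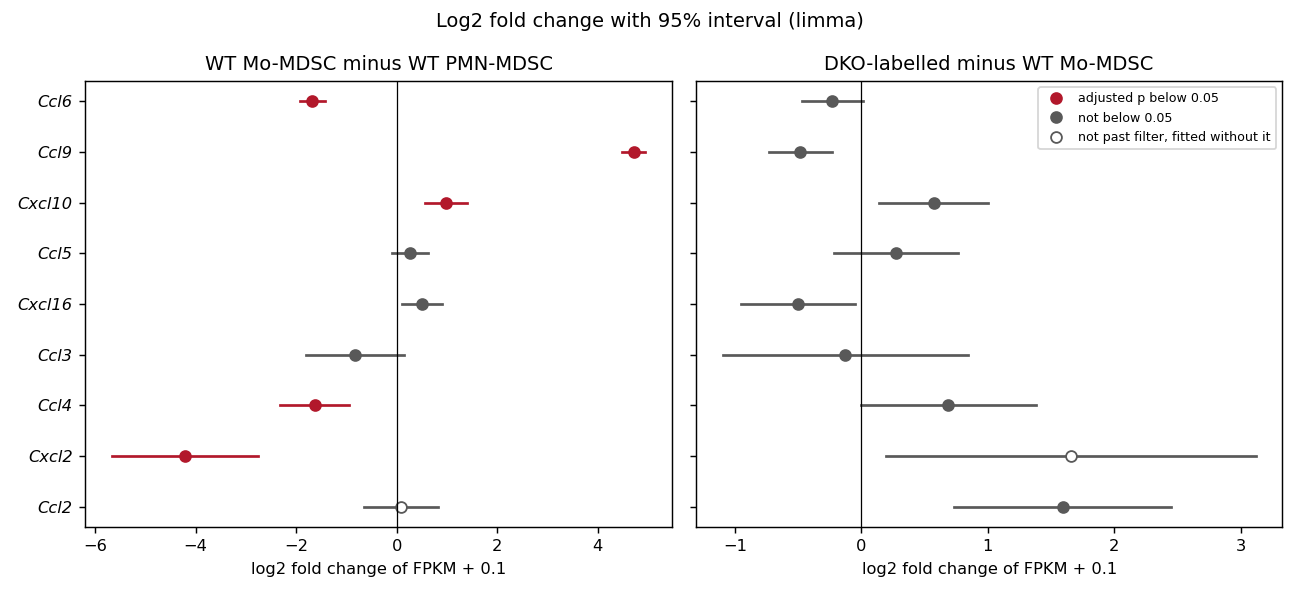
Log2 fold change (x axis, of FPKM + 0.1) of each ligand with its 95% interval from limma, left for WT Mo-MDSCs minus WT PMN-MDSCs and right for DKO-labelled minus WT Mo-MDSCs. Filled red points have an adjusted p below 0.05, and open points mark genes that did not pass the filter. The left panel has 5 red points, Ccl9 the furthest at 4.72, and the right panel has none.

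The subsets also differed in the make-up of the ligand mRNA. As a percent of the summed FPKM of the 41 chemokine ligands listed, Ccl6 made up 90.6 to 92.6% in PMN-MDSCs and 63.7 to 65.8% in WT Mo-MDSCs. Ccl9 made up 0.293 to 0.353% in PMN-MDSCs and 19.5 to 19.6% in WT Mo-MDSCs, and Cxcl10 made up 0.767 to 0.818% and 2.95 to 4.20%. The sum itself was 796 to 907 FPKM in PMN-MDSCs and 342 to 406 in WT Mo-MDSCs, and the 9 ligands held 94.5 to 96.8% and 91.2 to 94.9% of it. These shares are descriptions, with no test. In DKO-labelled Mo-MDSCs Ccl6 was at 62.2 to 65.0%, Ccl9 at 15.01 to 17.1% and Cxcl10 at 5.10 to 6.73% of a sum of 315 to 340 FPKM.

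**Figure D4:**
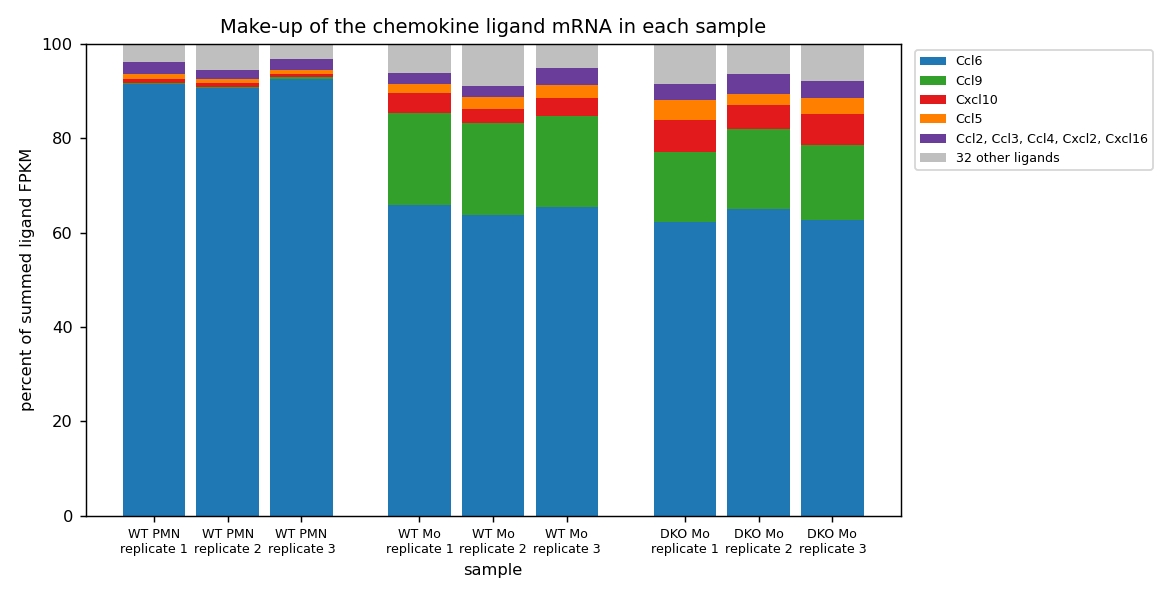
Percent of the summed FPKM of 41 chemokine ligands (y axis) in each of the 9 samples (x axis), by ligand. Ccl6 fills over 90% of each PMN-MDSC bar and 62.2 to 65.8% of each Mo-MDSC bar, where Ccl9 fills 15.01 to 19.6%.

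The other 32 ligands were low. Group means were under 1 FPKM throughout for 25 of them, and 6 were listed at 0 in all samples. Ccl24, a ligand of CCR3, was the only other ligand with a group mean of 10 FPKM or more, at 9.49, 24.3 and 7.01 FPKM in PMN-MDSCs and 5.55, 14.5 and 3.81 in WT Mo-MDSCs, so replicate 2 was high in both. It did not pass the test (log2 fold change -0.79, SE 0.590, adjusted p = 0.329). Of the 6 tested, none was higher and Cxcl13, the B cell attractant, was lower in Mo-MDSCs (3.58, 2.78 and 3.16 against 2.03, 2.03 and 0.897 FPKM, log2 fold change -0.98, SE 0.311, adjusted p = 0.0427). Over all genes tested 18.5% were higher and 20.6% lower.

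Of the 8 receptor genes tested and reported here, Ccr2 was higher in Mo-MDSCs and Ccr1, Cxcr2 and Ccrl2 were lower. At the same threshold 18.5% of all genes tested were higher and 20.6% lower. Ccr2, whose ligand gene Ccl2 was near 1 FPKM or below, had a log2 fold change of 7.01 (SE 0.105, adjusted p = 3.97e-07). Ccr3 was at 113 to 159 FPKM in PMN-MDSCs and 91.2 to 121 in WT Mo-MDSCs (adjusted p = 0.141), and Ccrl2, an atypical receptor, fell by 0.60 on the log2 scale (SE 0.158, adjusted p = 0.0224). Of 6 protease genes tested whose products can shed or trim chemokines, Adam17 and Elane were higher and Mmp8 and Mmp9 lower. Adam10, the main sheddase of CXCL16, was at 42.2 to 52.4 FPKM in all 9 samples.

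In lists of NF-kB and interferon genes, more were lower than higher in Mo-MDSCs. Over all genes tested, 18.5% were higher and 20.6% lower at an adjusted p below 0.05 (limma). Of 20 NF-kB early-response genes 3 were higher and 9 lower, with a median log2 fold change of -0.25 against 0.01 over all genes tested. Il1b, which encodes a pyrogenic cytokine, fell by 5.72 on the log2 scale (SE 0.165), and Tnfaip2 fell by 1.65 (SE 0.104). Of 25 interferon-response genes 6 were higher and 13 lower, with a median of -0.39. Cxcl10 was thus higher in the subset in which more of the interferon genes were lower, as was Mx1 (log2 fold change 2.24, SE 0.104), whereas Oasl2 fell by 1.97 (SE 0.153).

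The second comparison, of DKO-labelled with WT Mo-MDSCs, addressed how the genotype labels differ. It shares the 3 WT Mo-MDSC samples with the first comparison. None of the 8 ligands that passed the filter was called by limma, where 0.166% of 11451 genes were higher and 0.0873% lower at an adjusted p below 0.05. Adjusted p-values ran from 0.151 for Ccl9 to 0.903 for Ccl3. At an unadjusted p below 0.05, Ccl2 and Cxcl10 were higher and Ccl9 and Cxcl16 lower, where 5.27% of genes were higher and 9.74% lower. Among the ligands tested, the same 4 had groups without overlap, which 7.96% and 12.9% of genes had in the higher and lower direction. Ccl2 is in these counts only because it passed the filter through the DKO-labelled group, where it is high.

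Ccl2, the monocyte attractant, had the largest log2 fold change of those tested. It was at 2.63, 3.88 and 1.66 FPKM in the DKO-labelled samples and at 0.925, 0.497 and 1.04 in WT Mo-MDSCs, so every DKO-labelled sample was above every WT sample. The log2 fold change was 1.59 (SE 0.369, adjusted p = 0.157). It passed the filter through the DKO-labelled group, since only 1 WT sample reached 1 FPKM. Ccr2, the receptor of CCL2, was at 178, 202 and 160 FPKM against 362, 281 and 336, lower in all DKO-labelled samples (log2 fold change -0.86, SE 0.129, adjusted p = 0.0626).

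Cxcl10 was at 21.2, 17.4 and 20.7 FPKM in the DKO-labelled samples and at 17.1, 10.1 and 13.3 in WT Mo-MDSCs. The lowest DKO-labelled sample was just above the highest WT sample, and the log2 fold change was 0.57 (SE 0.185, adjusted p = 0.240). None of the 25 interferon-response genes was called, with a median log2 fold change of -0.04 against -0.02 over all genes tested. The smallest adjusted p among them was that of Ifi44 (log2 fold change 0.84, SE 0.192, adjusted p = 0.156), and Oasl2 followed with -0.38 (adjusted p = 0.320). None of 19 NF-kB genes was called, with Ier3 (-0.89, adjusted p = 0.0862) and Zfp36 (-0.44, adjusted p = 0.160) the closest.

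Ccl9 was at 47.3, 58.0 and 51.2 FPKM in the DKO-labelled samples, all below the 79.8, 67.0 and 71.9 of WT Mo-MDSCs (log2 fold change -0.48, SE 0.107, adjusted p = 0.151). Of 11 monocyte markers 6 were lower in every DKO-labelled sample than in every WT sample and 1, Irf8, was higher (142 to 151 FPKM against 134 to 141), and none was called. Over all genes tested, 12.9% were lower and 7.96% higher in this way. The monocyte marker sums were 3198 to 3774 FPKM against 4005 to 4515. Ccl9 was at 71.5% of its WT mean, Cx3cr1 at 71.5%, Ccr2 at 55.2%, F13a1 at 94.1% and Csf1r at 104%. Neutrophil marker sums, most of which is S100a8 and S100a9, were 7073 to 17148 FPKM against 17919 to 61916. Of the 12 markers 6 were lower and Mmp8 was higher in every DKO-labelled sample (71.7 to 112 FPKM against 42.3 to 55.2), beside the same 12.9% and 7.96% of all genes. None was called. The macrophage markers summed to 4099 to 6208 FPKM against 3772 to 4875, and Spic, a transcription factor of red pulp macrophages, was the only one of 10 to be higher in every DKO-labelled sample. B cell markers summed to 1325 to 1713 against 1246 to 1410, with 3 of 9 higher in every DKO-labelled sample, beside 7.96% of all genes. The part of these cell types in the differences between the genotype labels was not tested.

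Cxcl16 was at 3.18, 2.42 and 3.81 FPKM in the DKO-labelled samples against 5.23, 4.11 and 3.99, just without overlap (log2 fold change -0.50, SE 0.194, adjusted p = 0.295). Ccl6 was at 196, 221 and 201 FPKM against 267, 218 and 241, and its groups overlapped (log2 fold change -0.23, 95% interval -0.47 to 0.01, adjusted p = 0.347). Ccl4 was at 2.02, 3.11 and 2.70 FPKM against 1.84, 0.987 and 2.07, also with overlap (0.69, 95% interval -0.0022 to 1.38, adjusted p = 0.333).

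Ccl5 was at 13.4, 7.85 and 11.3 FPKM in the DKO-labelled samples and at 7.43, 8.51 and 10.6 in WT Mo-MDSCs. Its log2 fold change was 0.27 (95% interval -0.22 to 0.76, adjusted p = 0.568). Ccl3 was at 2.28, 3.87 and 2.23 FPKM against 1.74, 2.55 and 5.75, with -0.13 (95% interval -1.10 to 0.84, adjusted p = 0.903). The groups overlapped for both genes, and the interval of Ccl3 was the widest of the 8 tested.

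Cxcl2 did not pass the filter in this comparison. It was at 0.474, 0.804 and 1.04 FPKM in the DKO-labelled samples against 0.316, 0 and 0.356, all higher but near the floor of the measurement. With no filter the log2 fold change was 1.66 (SE 0.617, adjusted p = 0.388). Among the other ligands none of the 6 tested was called, nor was any of the 8 receptors, whose smallest adjusted p was that of Ccr2.

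In the chromosome 11 cluster the neighbours did not move as a block. Between the WT subsets, Ccl9 and Ccl6, 9245 bases apart and on the same strand, had log2 fold changes of 4.72 and -1.68, while Ccl3 and Ccl4, 13228 bases apart and on opposite strands, had -0.83 and -1.63. Ccl5, 42400 bases from Ccl9, had 0.27. Between the genotype labels the 5 values lay between -0.48 and 0.69.

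**Figure D5:**
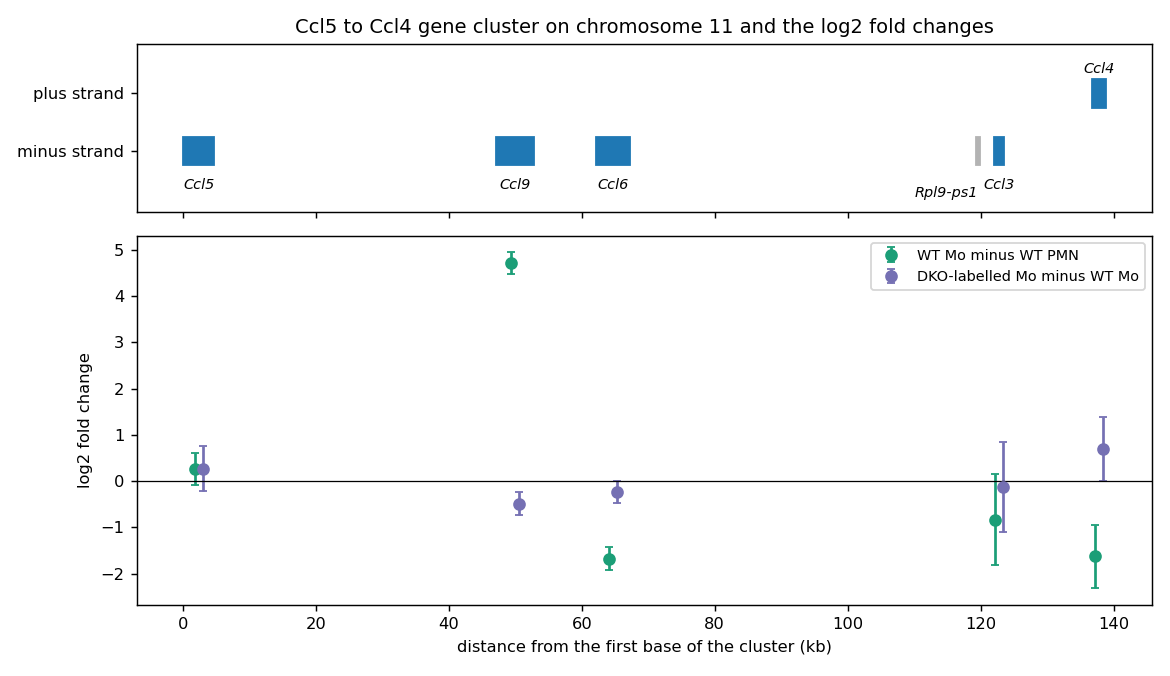
Top, the 6 coding genes of the cluster by distance from its first base (kb, x axis) and strand, with the gene that has no value in grey. Bottom, log2 fold changes (y axis) with 95% intervals for both comparisons, each point drawn at its gene's centre with a small sideways offset. Ccl9 is at 4.72 and its neighbour Ccl6 at -1.68 between the WT subsets.

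The genes with the most similar pattern were taken as those with the highest Pearson correlation of log2(FPKM + 0.1) over the 9 samples among 11726 genes. The samples come from 3 groups, so these values mostly follow differences between groups and are given with no p. For Ccl9 they were Ccr2 (r = 0.999), Arhgef10l (0.999) and Apba1 (0.998), and for Ccl6 Map3k5 (0.998), Rassf3 (0.997) and Klhl2 (0.996). Cxcl2 and Ccl4 were among each other's closest, at 0.963, beside Ppp1r11 (0.965) and Agpat5 (0.957) for Ccl4 and 4933430H15Rik (0.971) and C030046E11Rik (0.958) for Cxcl2. For Cxcl10 the closest were Fbxo22 (0.981), Tmem87b (0.978) and Ankrd10 (0.974), and for Ccl3 Spp1 (0.962), Trmt12 (0.939) and Hist1h2bb (0.934). For Cxcl16 they were Dpp4 (0.943), whose product trims chemokines, Cenpc1 (0.918) and Gm13251 (0.906), for Ccl2 Opa3 (0.938), Gm8801 (0.897) and Prpf19 (0.890), and for Ccl5 Zfp295 (0.904), Nudcd3 (0.903) and Mitd1 (0.894).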

How the data were processed

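RNA was sequenced from 9 samples in 3 groups of 3. The authors mapped single-end reads to mm10 with TopHat2 (2.0.13), Bowtie2 (2.2.3) and SAMtools (0.1.19) and deposited FPKM values from Cuffnorm (2.2.1), credited to the submitters' processing notes. The annotation, the scaling and the strand setting are not given in the sources used here. Median-of-ratios size factors of the deposited values were 0.9965 to 1.003, so the samples were already level by that measure. Upper quartiles of values above 0 were 22.0 to 24.5 FPKM, so values were compared as deposited, although total FPKM ranged from 494250 to 916640. The median SE was 0.118 and 0.122 (log2) in the first and second comparison.

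Values were taken as log2(FPKM + 0.1), so fold changes of low genes are understated. Genes reaching 1 FPKM in 3 or more of the 6 samples compared entered limma (3.58.1, R 4.3.3, eBayes with trend), with Benjamini-Hochberg adjustment over all genes tested and calls at 0.05. The fit was also run on simulated log-normal values with known changes and no replicate pairing. That checks the code and not the fit to these data. Named were the 9 ligands, other ligands and receptors with a group mean of at least 10 FPKM or a call, the 3 genes most like each ligand, the 2 smallest adjusted p of the NF-kB and interferon lists, and the most abundant marker of each list. Further markers, low receptors and the protease genes were named after their values were seen. The members and lists were chosen with earlier results of these data known.

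Replicate numbers come from the sample titles, and the library numbers in the labels run through the groups by replicate. Deviations from the group means correlated at 0.295, 0.483 and 0.200 between same-numbered WT samples and at -0.429 to 0.0499 between others, so the numbers were taken to pair the WT samples. The main fit was still unpaired, and the fit with a replicate block is given beside it. Alternatives covered the pseudocount, filter, scaling, samples fitted, block, library series, moderation, call rule and each sample left out. Ackr1, Ackr2, Ackr4, Adgre1, Siglecf and Hbb-bs were matched under older symbols, and Ly6g and Hbb-bt have no row. The results of 1 receptor gene are not reported here.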

Additional observations from a re-analysis of the deposited data

How the results depend on the processing

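Over the alternatives, 289 values of the single ligands kept their direction and side of the threshold, 12 came past it, 1 no longer passed it and 8 changed sign. Calls of Ccl6, Ccl9, Ccl4 and Cxcl2 between the WT subsets held wherever they were tested. Cxcl2 passed the filter only through PMN-MDSCs. It was thus not tested when a PMN-MDSC sample was left out, with replicates 2 and 3 alone, or with 1 FPKM required in every sample. Cxcl10 (adjusted p 0.00045 to 0.0396) missed only the study's threshold of a fold above 2, applied here to the limma log2 fold change of 0.98. Its ratio of mean FPKM was 2.03, so the miss depends on the measure used. The gene counts were 4492 and 29. Between the WT subsets, rescaling to equal totals (TPM) moved the median log2 fold change of all genes from 0.01 to 0.45 and gave 6771 calls, of which 86.0% were higher (47.2% as deposited, 54.9% after quantile normalization), and 4 ligands higher, with Ccl5 (0.71) and Cxcl16 (0.94) added. Replicates 2 and 3 alone gave 2759 calls. A rule built on the study's thresholds, with the unadjusted limma p, gave 1172, 408 higher and 764 lower, with 1 ligand higher. The study states a fold above 2 for Mo-MDSCs over PMN-MDSCs and a fold below 0.75 for the knockout. The opposite direction of each was mirrored here. A filter of 1 FPKM in every sample left 1 ligand lower, since Ccl4 and Cxcl2 were not tested. Cxcl16 was called with a pseudocount of 1, that filter, rescaling, the block and without PMN-MDSC replicate 1 (adjusted p = 0.0288). With the replicate block 6584 genes were called, with 3 ligands higher and 4 lower, and it changed no call other than those of Ccl3 and Cxcl16. Between the genotype labels, 13 genes were called with no filter, 51 with all 9 samples fitted, 6 with replicates 2 and 3, and 0 without variance moderation (29 with it, and 604 higher and 1115 lower at an unadjusted p below 0.05). The rule with mirrored thresholds gave 801, 294 higher and 507 lower, with 2 ligands higher and 2 lower. Only its lower direction was stated by the study. Leaving out each sample gave 8 to 25 genes. Rescaling moved the median from -0.02 to 0.14. The replicate block gave 20 calls. The same-number correlations were 0.348, 0.226 and -0.07, and not every sample correlated best with its own number, so the numbers were not taken to pair these samples. Signs changed for Ccl2 with no filter between the WT subsets (-1.83e-05 with replicates 2 and 3, -0.10 to 0.37 leaving out each sample), for Ccl3 between the genotype labels (0.027 after rescaling, -0.49 to 0.34 leaving out each sample) and for Ccl5 there (-0.011 with replicates 2 and 3). The cause was not tested. The fits with no filter under each alternative were chosen after seeing the data. Cxcl2 in Mo-MDSCs and Ccl2 in WT cells lie near the level at which depth limits the measurement.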
